A study of Mus musculus with 9 samples.

Results

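The 10 genes described here were the D cyclins Ccnd1, Ccnd2 and Ccnd3, the G1 kinases Cdk4 and Cdk6, the CIP/KIP inhibitors Cdkn1a and Cdkn1b and the INK4 inhibitors Cdkn2a, Cdkn2c and Cdkn2d. They were chosen by name, as the core of the switch that lets a cell leave G1, out of 46078 gene identifiers counted in each library. The choice was made with earlier results of these data known. All 10 were found in the counts and passed the filter on low counts in each of the 3 comparisons. RNA-seq was performed on EGFP-SSCs, a mouse spermatogonial stem cell (SSC) line with the genotype label WT, in 3 libraries at each of 0 h, 24 h and 48 h. At 0 h, the SSCs were in normal culture on embryonic fibroblasts stopped with mitomycin C, in medium with GDNF, basic FGF and EGF. At 24 h and 48 h, they had been co-cultured with an equal number of testicular somatic cells from young busulfan-exposed mice, in medium that held BMP-4/7, retinoic acid, activin A, testosterone, FSH and BPE. EGFP-positive cells were then sorted, which the labels state for 24 h and 48 h. Medium, feeder cells, partner cells and time changed together between 0 h and the later times, so their effects cannot be told apart, and all libraries came from a single cell line. The question was how the RNA of the G1 switch differed between SSCs and their differentiating products.

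D-type cyclins bind CDK4 or CDK6, and the active pair phosphorylates the retinoblastoma protein, which then releases E2F factors to switch on genes of S phase. D cyclins are made in response to growth factors, and CCND2 in particular is known for its link to GDNF in SSCs and to differentiating spermatogonia. INK4 proteins bind CDK4 and CDK6 themselves and keep D cyclins from binding, whereas the CIP/KIP proteins p21 (Cdkn1a) and p27 (Cdkn1b) inhibit the later CDK2 complexes and also bind D cyclin complexes.

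At 24 h, 7 of the 10 genes had changed relative to 0 h (edgeR quasi-likelihood test, adjusted p up to 0.05), where 25.5% of 17592 genes tested had. Of these 10 genes, 1 was higher and 6 were lower, against 11.4% and 14.2% of all genes. At 48 h, it was also 7 of 10 relative to 0 h, against 31.6% of 17755 genes, with 1 higher and 6 lower, against 13.0% and 18.5%. Between 24 h and 48 h, 7 of 10 differed, against 21.3% of 17499 genes, again 1 higher and 6 lower, against 8.61% and 12.7%. The gene that rose was Cdk6 each time, and all 3 D cyclins and Cdk4 fell at each step. Cdkn1a and Cdkn1b fell from 0 h. Cdkn2a, Cdkn2c and Cdkn2d were not called relative to 0 h, while Cdkn2c and Cdkn2d fell from 24 h to 48 h. The median log2 fold change of the 10 genes from 0 h was -0.82 by 24 h and -1.10 by 48 h, and -0.54 from 24 h to 48 h, where the medians over all genes tested were 0.0052, 0.017 and -0.0045. Libraries of the earlier and the later time did not overlap in 8, 7 and 7 of the 10 genes in these comparisons, against 43.1%, 47.7% and 38.5% of all genes. Both comparisons with 0 h share the same 0 h libraries.

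Library totals ran from 16825251 to 22201892 counts. The 0 h libraries stood apart from one another along GC content. Across 13703 genes, the deviation of a library from its group mean had a rank correlation with GC content of -0.677 in replicate 1, -0.0015 in replicate 2 and 0.677 in replicate 3, and this correlation lay between -0.447 and 0.463 at the later times. Among the 10 genes, the 7 with the highest GC content (50.9% to 60.2% of the longest transcript) were lowest in 0 h replicate 1 and highest in replicate 3. The reverse held for Cdkn1b and Cdk6 (43.1% and 45.1%), and Ccnd2 (47.1%) was highest in replicate 2. Germ cell markers were abundant in every library, with 2137 to 3279 CPM (counts divided by the TMM-scaled library total in megareads) summed over 10 genes at 0 h, 2797 to 2996 at 24 h and 2960 to 3183 at 48 h.

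Markers of somatic cells moved between 0 h and the later times. The counts of called markers at 48 h relative to 0 h stand beside 13.0% higher and 18.5% lower of all genes tested. The summed level of 10 fibroblast and stromal markers was 759 to 887 CPM at 0 h, 2733 to 3154 at 24 h and 3678 to 3955 at 48 h, with 7 of 10 tested genes higher and 1 lower at 48 h than at 0 h. The 8 peritubular myoid markers summed to 17.0 to 21.1, 167 to 232 and 292 to 349 CPM, with 7 of 8 higher at 48 h than at 0 h. For both lists, every later library lay above every 0 h library. Sertoli cell markers summed to 23.0 to 27.5, 75.8 to 126 and 117 to 127 CPM over 10 genes, of which 6 of 8 tested were higher at 48 h, while Fshr and Cst9 had 0 counts in the 0 h libraries and at most 3 counts in each 24 h library. Leydig cell markers summed to 4.53 to 6.82, 25.2 to 38.6 and 25.8 to 31.9 CPM over 7 genes, with 3 of 3 tested genes higher at 48 h. Again no later library overlapped with a 0 h library in these sums. The summed macrophage markers ran the other way, at 17.3 to 20.96, 5.97 to 9.85 and 5.38 to 7.66 CPM over 7 genes, with 2 of 3 tested genes lower at 48 h. So did the endothelial sum, at 70.0 to 77.4, 29.0 to 37.0 and 20.96 to 24.5 CPM over 7 genes, of which 3 of 6 tested were lower and 2 higher at 48 h. The part of these cells in the changes below was not tested. In sorted bulk samples, fewer cells of a type and less RNA per cell cannot be told apart.

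Sequence upstream of the start sites is shown for the kinases, which moved in opposite directions, and for Cdkn1a and Cdkn1b, which both fell. It is also shown for the 2 starts of Cdkn2a, whose products share 1 count. RefSeq windows on GRCm38.p6, from 250 bases before to 50 bases after a start, were matched for 8 of the 10 genes, as 12 windows. The longest stretch before the start that no annotated exon covers is printed 5′ to 3′ on the gene's strand. Capitals mark matches, on either strand, to the E-box CACGTG, the GC box GGGCGG, the TATA box TATAAA, the E2F sites TTTCCCGC and TTTGGCGC, the CRE TGACGTCA or the p53 half-site consensus.
Cdk4, chr10:127063285-127063533, plus strand: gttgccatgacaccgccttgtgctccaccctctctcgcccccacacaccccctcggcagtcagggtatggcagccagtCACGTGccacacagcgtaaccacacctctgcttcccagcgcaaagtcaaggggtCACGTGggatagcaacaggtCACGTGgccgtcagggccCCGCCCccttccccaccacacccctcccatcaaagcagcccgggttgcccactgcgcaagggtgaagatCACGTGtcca
Cdk6, chr5:3343789-3343892, plus strand: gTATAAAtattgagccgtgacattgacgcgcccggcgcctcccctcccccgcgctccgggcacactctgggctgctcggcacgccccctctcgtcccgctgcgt
Cdkn1a, chr17:29090729-29090975, plus strand: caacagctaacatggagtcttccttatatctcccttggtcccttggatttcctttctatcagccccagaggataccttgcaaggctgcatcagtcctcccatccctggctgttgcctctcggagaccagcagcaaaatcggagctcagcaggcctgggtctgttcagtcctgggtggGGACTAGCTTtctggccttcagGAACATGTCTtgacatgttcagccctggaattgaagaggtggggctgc
Cdkn1b, chr6:134920151-134920400, plus strand: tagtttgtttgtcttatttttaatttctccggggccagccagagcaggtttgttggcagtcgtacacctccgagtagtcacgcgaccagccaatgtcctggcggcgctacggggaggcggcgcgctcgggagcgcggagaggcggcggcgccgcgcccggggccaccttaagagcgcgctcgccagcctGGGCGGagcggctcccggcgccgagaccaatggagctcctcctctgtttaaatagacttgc
Cdkn2a at the start of p19Arf, chr4:89294654-89294869, minus strand: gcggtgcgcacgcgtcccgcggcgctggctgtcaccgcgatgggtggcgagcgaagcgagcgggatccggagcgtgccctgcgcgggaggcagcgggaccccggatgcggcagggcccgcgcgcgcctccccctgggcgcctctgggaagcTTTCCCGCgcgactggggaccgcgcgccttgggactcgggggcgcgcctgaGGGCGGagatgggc
Cdkn2a at the start of p16Ink4a, chr4:89282193-89282442, minus strand: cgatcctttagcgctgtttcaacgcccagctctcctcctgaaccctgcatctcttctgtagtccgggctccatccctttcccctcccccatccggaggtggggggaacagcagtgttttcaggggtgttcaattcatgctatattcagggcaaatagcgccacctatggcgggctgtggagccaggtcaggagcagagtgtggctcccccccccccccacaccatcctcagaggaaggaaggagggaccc

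The Cdk4 stretch held 4 E-boxes and 1 GC box, which lay apart from each other. An E-box occurred in 7.15% of all 32851 windows and in 3 of the 12 windows of these genes, those of Cdk4, Cdk6 and Cdkn2c. The E-box of Cdk6, at base -220 from its start, lies outside the stretch printed, so both kinases had this match. The TATA box was found in 13.6% of all windows and in 1 of the 12, that of Cdk6. The stretch before the upstream start of Cdkn1a held 2 matches to the p53 half-site consensus, which 8.36% of all windows and 2 of the 12 held. The E2F site TTTCCCGC, in 1.07% of all windows, was matched in 1 of the 12, at the p19Arf start, and the other E2F site, in 0.514% of all windows, in 0 of the 12. GC boxes were common, in 35.7% of all windows and 9 of the 12, and the CRE was in 1.79% of all windows and 0 of the 12. These matches describe the letters of the windows and were not tested for binding.

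The D cyclins fell together and in order of time. Ccnd2 (ENSMUSG00000000184, chr6:127125162-127152193, minus strand), the D cyclin of the highest level per length at 0 h, had 729, 773 and 710 CPM at 0 h, 412, 379 and 386 at 24 h and 182, 181 and 179 at 48 h. No library of one time overlapped with another time, and the 48 h libraries lay within 179 to 182 CPM. The log2 fold change was -0.91 ± 0.10 (SE) by 24 h and -2.02 ± 0.10 by 48 h, each from 0 h (edgeR, adjusted p = 0.000665 and 1.61e-05), a level 4.07-fold lower at 48 h. From 24 h to 48 h, it fell again by 1.11 ± 0.06 on the log2 scale (edgeR, adjusted p = 2.18e-05). On the opposite strand, Gm43126 and 9330179D12Rik share 372 and 368 exon bases with Ccnd2.

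Ccnd1 (ENSMUSG00000070348, chr7:144929931-144939925, minus strand), the D cyclin most often tied to growth factor signalling through ERK, had 161, 189 and 207 CPM at 0 h, 78.9, 76.8 and 74.5 at 24 h and 35.2, 39.0 and 36.8 at 48 h. The 3 times were again separate, and the fall was the largest of the 10 genes at 48 h, at 4.99-fold. Its log2 fold change was -1.27 ± 0.11 (SE) by 24 h and -2.32 ± 0.12 by 48 h, each from 0 h (edgeR, adjusted p = 0.000273 and 2.1e-05), and -1.05 ± 0.07 from 24 h to 48 h (edgeR, adjusted p = 6.64e-05). LTO1 lies on the opposite strand and shares 1100 exon bases with Ccnd1. No strand setting of the counting is given, so how reads of this part were counted is not known.

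Ccnd3 (ENSMUSG00000034165, chr17:47505051-47599691, plus strand), known for its role in lymphocytes and other maturing cells, fell least. It had 153, 187 and 212 CPM at 0 h, 112, 112 and 110 at 24 h and 77.8, 78.8 and 73.0 at 48 h. The groups did not overlap, although the 0 h libraries spread 1.39-fold. Its log2 fold change was -0.72 ± 0.13 (SE) by 24 h and -1.26 ± 0.13 by 48 h, each from 0 h (edgeR, adjusted p = 0.00561 and 0.000443), and -0.53 ± 0.06 from 24 h to 48 h (edgeR, adjusted p = 0.0007). Ccnd3 shares 361 exon bases with Bysl on the opposite strand, and 6.16% of its longest transcript matches Ccnd3-ps.

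**Figure D1:**
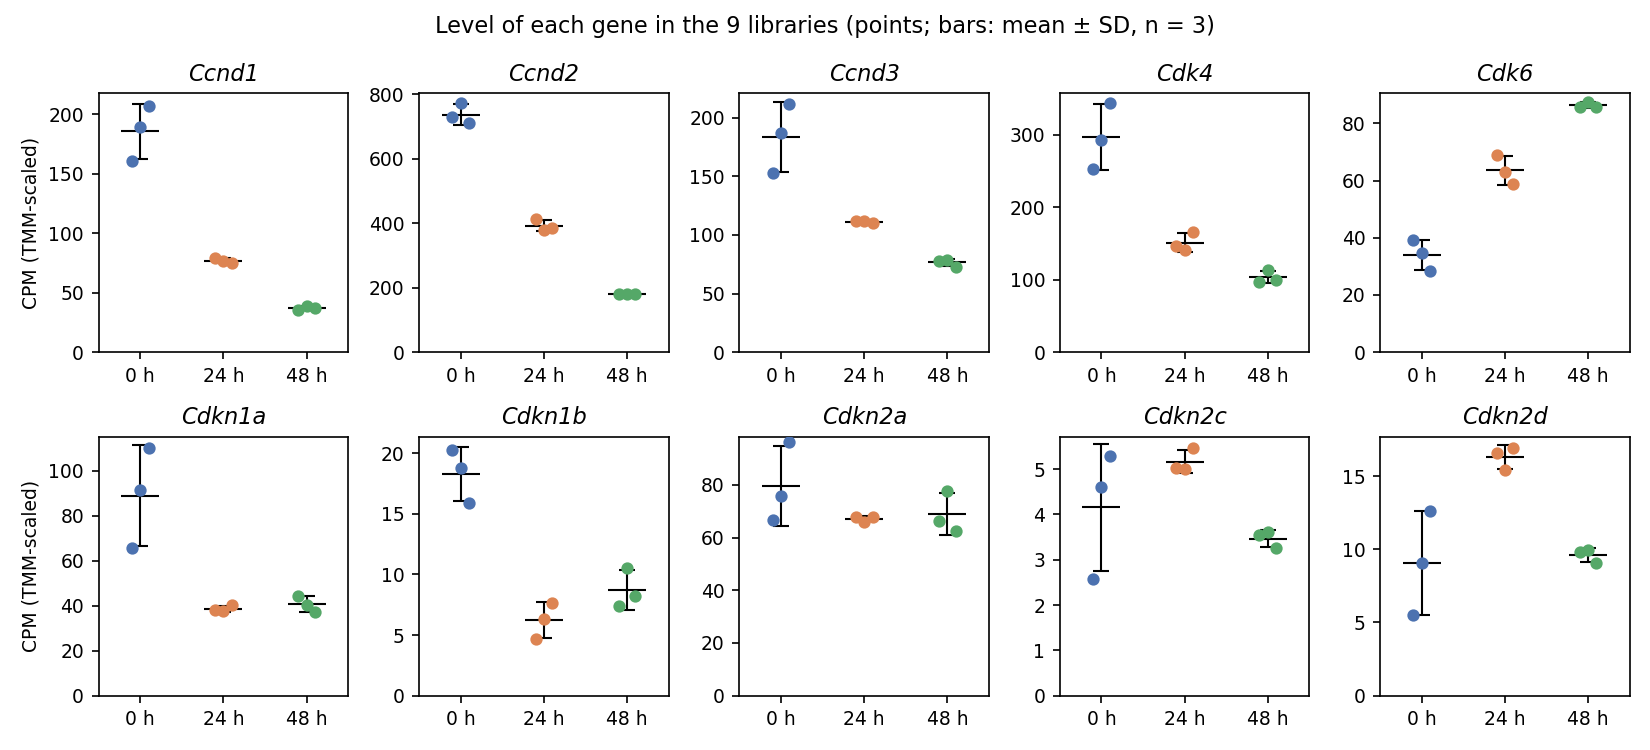
Level of each of the 10 genes, in TMM-scaled CPM (y axis, from 0), at 0 h, 24 h and 48 h. Points are the 3 libraries of a time, and bars are the mean ± SD. Ccnd1 falls from 161 to 207 CPM at 0 h to 35.2 to 39.0 at 48 h and Cdk6 rises from 28.5 to 39.1 to 85.6 to 87.5, while Cdkn2a overlaps between all times.

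The kinases went opposite ways. Cdk4 (ENSMUSG00000006728, chr10:127063534-127067920, plus strand) had 253, 293 and 345 CPM at 0 h, 147, 141 and 166 at 24 h and 97.3, 113 and 100.2 at 48 h. Every later library was below every earlier one. The log2 fold change was -0.97 ± 0.13 (SE) by 24 h and -1.51 ± 0.13 by 48 h, each from 0 h (edgeR, adjusted p = 0.00179 and 0.000203), and -0.54 ± 0.08 from 24 h to 48 h (edgeR, adjusted p = 0.00213). Tspan31 shares 641 exon bases with Cdk4 on the opposite strand, and 28.9% of the longest Cdk4 transcript matches it.

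Cdk6 (ENSMUSG00000040274, chr5:3341485-3531008, plus strand) had 39.1, 34.5 and 28.5 CPM at 0 h, 69.1, 62.8 and 58.9 at 24 h and 85.9, 87.5 and 85.6 at 48 h. It was the only one of the 10 genes with each later group above the earlier one in both steps. The log2 fold change was 0.90 ± 0.15 (SE) by 24 h and 1.35 ± 0.15 by 48 h, each from 0 h (edgeR, adjusted p = 0.00495 and 0.000533), a 2.54-fold higher level at 48 h. From 24 h to 48 h, the rise was 0.45 ± 0.07 (edgeR, adjusted p = 0.0029), and it missed the threshold under 3 of 15 alternatives. With offsets for GC content and length, it was 0.22 (edgeR, adjusted p = 0.0526), and 0.22 with a replicate block added to them (edgeR, adjusted p = 0.0826). With all 9 libraries in 1 fit, it was 0.46 (edgeR, adjusted p = 0.0619). The sums of stromal and myoid markers given above were higher at both later times, as Cdk6 was, and their part in its rise was not tested. Gm17590 on the opposite strand shares 368 exon bases with Cdk6, and 3.01% of the longest Cdk6 transcript matches other genes.

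The CIP/KIP inhibitors Cdkn1a and Cdkn1b fell by 24 h and were not called between 24 h and 48 h. Cdkn1a (ENSMUSG00000023067, chr17:29090976-29100727, plus strand), which encodes p21 and is the classical target of p53, had 65.5, 91.5 and 110 CPM at 0 h, 38.3, 37.6 and 40.1 at 24 h and 44.4, 40.2 and 37.2 at 48 h. The 0 h libraries spread 1.68-fold, yet the lowest of them stood above all 6 later libraries, which overlapped between 24 h and 48 h. The log2 fold change was -1.20 ± 0.18 (SE) by 24 h and -1.12 ± 0.19 by 48 h, each from 0 h (edgeR, adjusted p = 0.00273 and 0.00388), and 0.078 ± 0.086 from 24 h to 48 h (edgeR, adjusted p = 0.552). AC167363.2 on the opposite strand shares 273 exon bases with Cdkn1a.

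Cdkn1b (ENSMUSG00000003031, chr6:134920401-134925513, plus strand), which encodes p27, was the lower of the 2 per length and had 20.3, 18.7 and 15.9 CPM at 0 h, 4.67, 6.35 and 7.65 at 24 h and 7.38, 10.6 and 8.21 at 48 h. Its fall by 24 h was the steepest of the 10 genes at that time, 2.94-fold. The log2 fold change was -1.55 ± 0.21 (SE) by 24 h and -1.07 ± 0.18 by 48 h, each from 0 h (edgeR, adjusted p = 0.00192 and 0.00444). Libraries of 24 h and 48 h overlapped, with a log2 fold change of 0.49 ± 0.20 between them (edgeR, adjusted p = 0.114, and 0.0297 with no filter on low counts).

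Among the INK4 genes of the 10, Cdkn2a (ENSMUSG00000044303, chr4:89274471-89294653, minus strand) had by far the highest level per length. Its locus gives both p16Ink4a and p19Arf, a protein that holds back the p53 inhibitor MDM2, from separate starts, and the count adds them. It had 66.6, 75.7 and 96.4 CPM at 0 h, 67.6, 66.0 and 67.8 at 24 h and 66.3, 77.7 and 62.3 at 48 h. All 3 times overlapped, and the log2 fold change was -0.24 ± 0.14 (SE) by 24 h and -0.20 ± 0.16 by 48 h, each from 0 h (edgeR, adjusted p = 0.267 and 0.371) and 0.040 ± 0.080 between the later times (edgeR, adjusted p = 0.761). With offsets for GC content and length, it passed the threshold at 24 h against 0 h (-0.32, adjusted p = 0.0406) and at 48 h against 24 h (0.25, adjusted p = 0.024).

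Cdkn2d (ENSMUSG00000096472, chr9:21288410-21291407, minus strand), which encodes p19Ink4d, had 5.53, 9.05 and 12.6 CPM at 0 h, 16.6, 15.4 and 16.9 at 24 h and 9.79, 9.97 and 9.06 at 48 h. It was highest at 24 h, where its libraries lay above those of both other times. The log2 fold change of 0.85 ± 0.27 (SE) at 24 h relative to 0 h missed the threshold (edgeR, adjusted p = 0.0543) but passed it under 9 of 15 alternatives, over which the adjusted p ran from 0.00278 to 0.158. These include DESeq2 (0.84, adjusted p = 0.0243), all 9 libraries in 1 fit (adjusted p = 0.0226) and GC and length offsets (adjusted p = 0.00278), and among the libraries left out it was called without 0 h replicate 1 (0.60, adjusted p = 0.0375) or without 0 h replicate 3 (1.17, adjusted p = 0.00507). The fall from 24 h to 48 h of 0.76 ± 0.10 on the log2 scale passed it (edgeR, adjusted p = 0.00131, and 0.0994 with all 9 libraries in 1 fit). At 48 h, it was 0.090 ± 0.28 from its 0 h level (edgeR, adjusted p = 0.84).

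Cdkn2c (ENSMUSG00000028551, chr4:109660876-109667189, minus strand), which encodes p18Ink4c, was low, with 42 to 112 counts in a library. Its values were 2.58, 4.60 and 5.29 CPM at 0 h, 5.03, 5.01 and 5.46 at 24 h and 3.54, 3.62 and 3.25 at 48 h, so that the 0 h libraries overlapped with both later times. It fell by 0.57 ± 0.16 (SE) on the log2 scale from 24 h to 48 h (edgeR, adjusted p = 0.032), a call that 11 of 15 alternatives lost. Relative to 0 h, the log2 fold change was 0.31 ± 0.27 by 24 h and -0.25 ± 0.28 by 48 h (edgeR, adjusted p = 0.458 and 0.54).

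**Figure D2:**
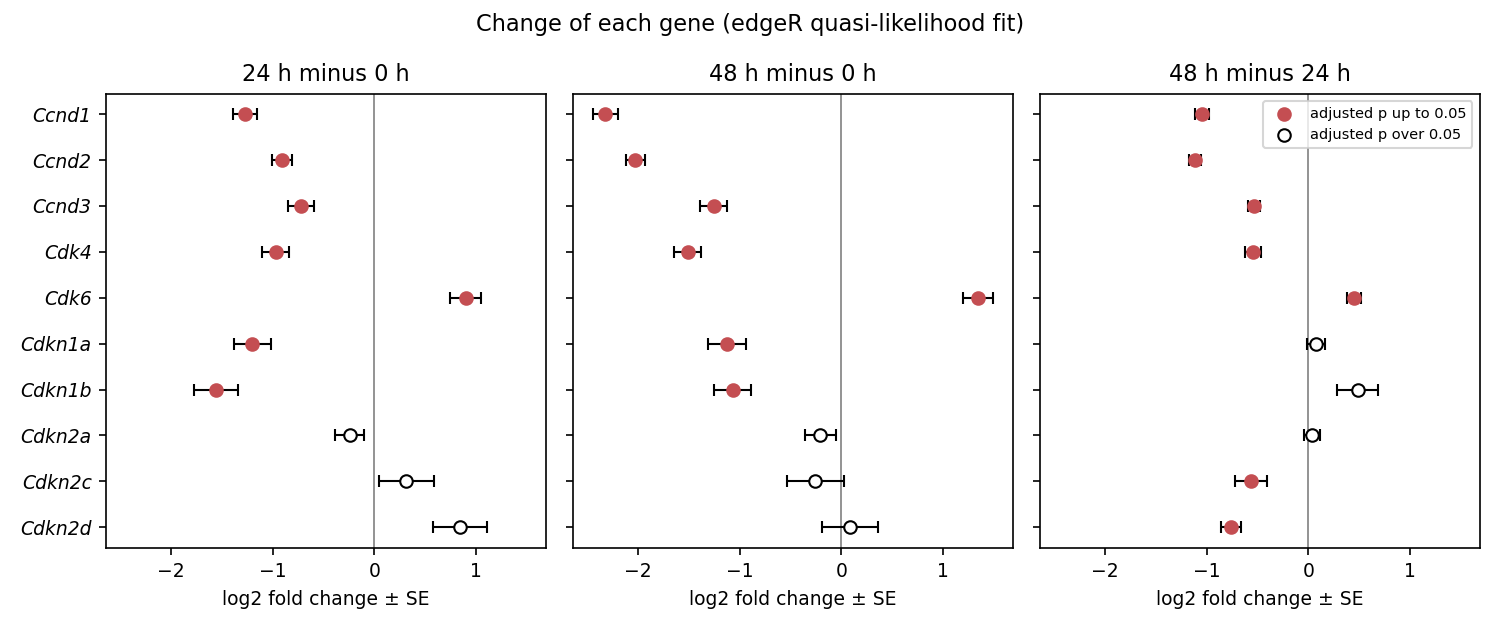
Log2 fold change of each gene (x axis, ± SE derived from the edgeR test) for 24 h against 0 h, 48 h against 0 h and 48 h against 24 h, from left to right. Filled points passed an adjusted p of 0.05. Ccnd1, Ccnd2, Ccnd3 and Cdk4 lie left of 0 in the 3 panels and Cdk6 right of it, and Ccnd1 reaches -2.32 at 48 h relative to 0 h.

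Levels of different genes were compared per length, as FPKM (CPM divided by the kilobases of the gene's exons). At 0 h, Cdk4 with 91.4 ± 14.1 FPKM (SD, n = 3), Ccnd2 with 78.4 ± 3.43 and Cdkn2a with 67.9 ± 13.0 led the 10 genes, and each overlapped with the next in its range over libraries. Ccnd1 followed with 39.4 ± 4.94, then Cdkn1a with 25.1 ± 6.28 and Ccnd3 with 20.9 ± 3.40, whose ranges overlapped. Cdkn2d (5.76 ± 2.26), Cdkn1b (4.02 ± 0.49), Cdk6 (2.43 ± 0.38) and Cdkn2c (1.55 ± 0.52) were lowest, and of these neighbours Cdkn2d and Cdkn1b overlapped.

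The order changed as the cyclins fell. At 24 h, Cdkn2a led with 57.3 ± 0.85 FPKM (SD, n = 3), apart from Cdk4 (46.6 ± 4.01), which overlapped with Ccnd2 (41.7 ± 1.87). At 48 h, Cdkn2a with 58.7 ± 6.79 FPKM stood above Cdk4 (31.9 ± 2.65) and Ccnd2 (19.2 ± 0.14), and no neighbours among the leading 7 genes overlapped. Cdk6, the ninth at 0 h, was the seventh at 48 h with 6.17 ± 0.07 FPKM, beside Cdkn2d with 6.10 ± 0.31, which overlapped with it, and Ccnd1 had 7.86 ± 0.41. With the longest transcript as the length, Ccnd3 moved above Cdkn1a at 0 h and 48 h and above Ccnd1 at 24 h.

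Summed within families, the D cyclins had 129 to 144 FPKM at 0 h, 69.3 to 73.3 at 24 h and 35.2 to 36.5 at 48 h. Ccnd2 had the largest share of the 3 at each time, with 56.6 ± 3.78% (SD, n = 3), 59.0 ± 0.82% and 53.7 ± 0.87%, while the share of Ccnd3 was 15.0 ± 1.69%, 17.9 ± 0.49% and 24.4 ± 0.65%. Ccnd1 made up 28.3 ± 2.09%, 23.1 ± 0.40% and 22.0 ± 0.90%. With the longest transcript as the length, the share of Ccnd2 was 54.6%, 55.7% and 49.0%, and that of Ccnd3 at 48 h 34.0%. These sums and shares describe the libraries and carry no test.

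In the kinase pair, Cdk6 made up 3.46%, 2.67% and 1.88% of the summed FPKM in the 0 h libraries, 9.84%, 9.38% and 7.62% at 24 h and 17.0%, 15.2% and 16.6% at 48 h. Every later group lay above the earlier one, and the sum of both kinases was 80.8 to 108 FPKM at 0 h, 47.9 to 55.3 at 24 h and 36.1 to 41.2 at 48 h. Cdk4 thus remained the main kinase RNA, at 83.8 ± 0.95% (SD, n = 3) of the pair at 48 h.

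Cdkn1a and Cdkn1b, summed without the CIP/KIP gene Cdkn1c, had 22.9 to 34.4 FPKM at 0 h, 11.8 to 13.0 at 24 h and 12.3 to 14.1 at 48 h. The INK4 sum took Cdkn2a, Cdkn2c and Cdkn2d, without the INK4 gene Cdkn2b. Its values of 61.3 to 92.2, 68.0 to 70.6 and 60.2 to 73.9 FPKM overlapped between the 3 times. Cdkn2a supplied 90.5 ± 1.92% (SD, n = 3) of this sum at 0 h, then 82.4 ± 0.47% by 24 h and 88.8 ± 0.74% by 48 h. Cdkn2d supplied 7.47 ± 1.55%, 14.9 ± 0.42% and 9.28 ± 0.62%. The Cdkn2a count includes p19Arf, which is not an INK4 protein, so these are not shares of INK4 RNA alone.

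**Figure D3:**
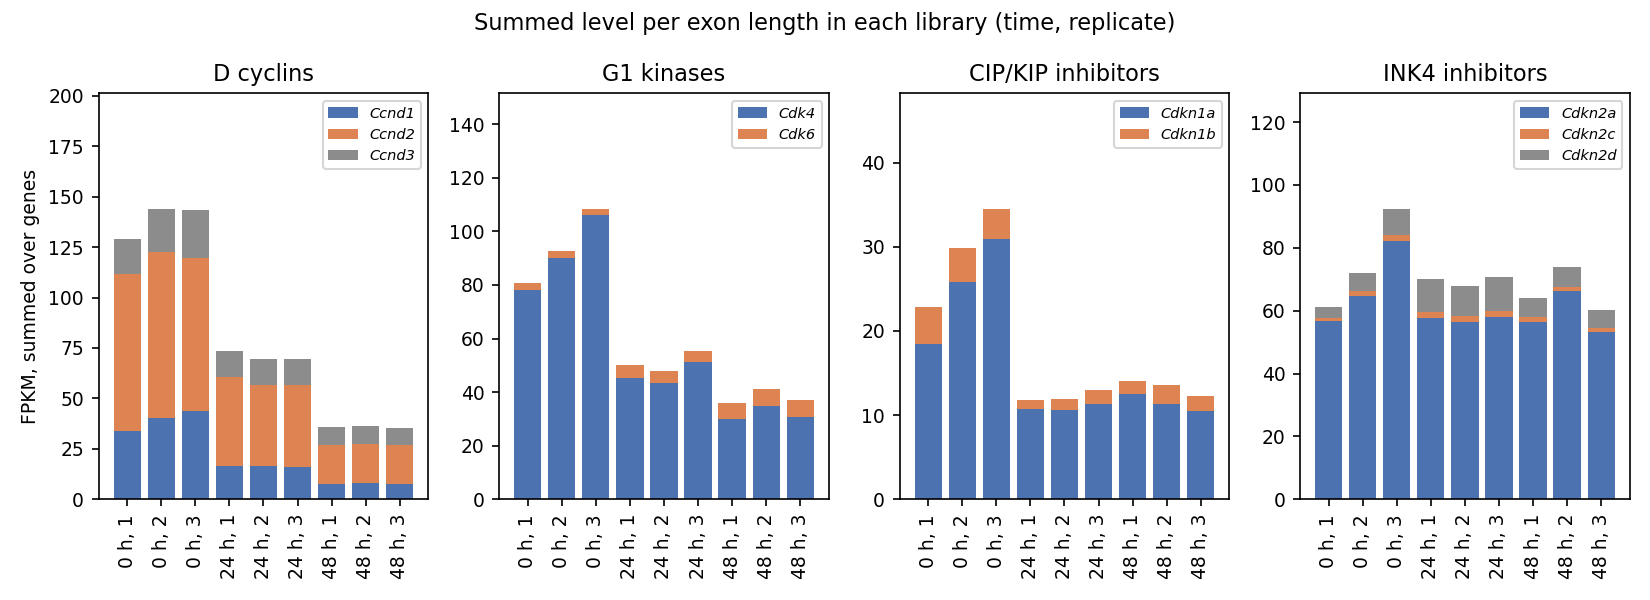
Summed FPKM (y axis, from 0, with its own scale in each panel) of the D cyclins, G1 kinases, CIP/KIP inhibitors and INK4 inhibitors in each of the 9 libraries, named by time and replicate and stacked by gene. The D cyclin stack falls from 129 to 144 FPKM at 0 h to 35.2 to 36.5 at 48 h, and the INK4 stacks overlap between times. The CIP/KIP panel holds only Cdkn1a and Cdkn1b, and the INK4 panel only Cdkn2a, Cdkn2c and Cdkn2d.

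The counts of calls in other lists of the pathway are read against the 25.5%, 31.6% and 21.3% of all genes called in the 3 comparisons, 24 h and then 48 h with 0 h, and 48 h with 24 h. The list of other CDK inhibitors held Cdkn1c, Cdkn2b and Cdkn3, and also Cdkn2aip, which is not itself a CDK inhibitor. Of 4 genes tested, 0 rose and 2 fell by 24 h, 0 rose and 1 fell at 48 h relative to 0 h, and 1 rose and 1 fell from 24 h to 48 h, with a median log2 fold change of -0.50, -0.20 and 0.31. Cdkn1c, which encodes the CIP/KIP protein p57, fell from 66.2 ± 18.1 CPM (SD, n = 3) at 0 h to 34.6 ± 4.28 at 48 h, a log2 fold change of -0.93 (edgeR, adjusted p = 0.0105). It was also lower at 48 h than at 24 h, with a log2 fold change of -0.61 (edgeR, adjusted p = 0.0028). Cdkn2b, the p15Ink4b gene next to Cdkn2a, went from 13.7 ± 2.00 CPM to 8.23 ± 0.29 at 24 h and back to 12.4 ± 0.75 at 48 h, falling by 0.74 and then rising by 0.59 on the log2 scale (edgeR, adjusted p = 0.0125 and 0.00563). Cdkn3, a phosphatase that acts on CDKs, fell by 0.68 at 24 h (edgeR, adjusted p = 0.0346).

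Downstream of the kinases, the 13 RB pocket and E2F genes had 0 higher and 1 lower by 24 h, 0 higher and 5 lower at 48 h relative to 0 h, and 1 higher and 4 lower from 24 h to 48 h. The called share was 7.69%, 38.5% and 38.5%, beside 25.5%, 31.6% and 21.3% of all genes. Over 15 alternatives, the calls ranged from 0 to 3, 2 to 6 and 2 to 6. The count at 48 h relative to 0 h thus does not set the list apart from all genes. The median log2 fold changes of the 13 genes were -0.20, -0.18 and -0.10, and the 5 calls at 48 h relative to 0 h became 2 without 48 h replicate 1. E2f1, an activating E2F, fell from 256 ± 58.5 CPM (SD, n = 3) to 154 ± 1.88 and 113 ± 7.11, with log2 fold changes from 0 h of -0.73 by 24 h and -1.17 by 48 h (edgeR, adjusted p = 0.0144 and 0.0019). E2f2, likewise an activator, fell by 1.41 at 48 h relative to 0 h, and E2f8, a repressor of the family, by 0.59 (edgeR, adjusted p = 0.00129 and 0.0173).

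Of the 35 S phase genes known as E2F targets, 2 rose and 4 fell by 24 h. At 48 h relative to 0 h, 1 rose and 13 fell, and from 24 h to 48 h, 0 rose and 10 fell. Lower calls made up 11.4%, 37.1% and 28.6% of the list, beside 14.2%, 18.5% and 12.7% of all genes. Higher calls made up 5.71%, 2.86% and 0.0%, beside 11.4%, 13.0% and 8.61%. The median log2 fold changes of the 35 genes were -0.038, -0.19 and -0.12. The 14 calls at 48 h relative to 0 h became 5 without 48 h replicate 1, and the 10 calls from 24 h to 48 h became 0 with all 9 libraries in 1 fit. Uhrf1, a partner of the maintenance DNA methyltransferase, fell from 1022 ± 118 CPM (SD, n = 3) to 446 ± 50.3 at 48 h, Rrm2, the small subunit of ribonucleotide reductase, from 140 ± 4.21 to 67.6 ± 7.71, and thymidine kinase Tk1 from 71.9 ± 17.1 to 35.2 ± 1.86. Their log2 fold changes at 48 h relative to 0 h were -1.19, -1.04 and -1.02 (edgeR, adjusted p = 0.000502, 0.000572 and 0.00442). Gmnn, the replication licensing inhibitor geminin, rose by 0.82 at 24 h (edgeR, adjusted p = 0.00552).

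Of 16 genes for the later cyclins, their kinases and the phosphatases and kinases that act on them, 1 rose and 3 fell in each comparison, with medians of -0.11, -0.022 and 0.063. This is 25.0% of the list, near the 25.5%, 31.6% and 21.3% of all genes, so the count sets these genes apart in no comparison. Ccne1, the cyclin E that partners CDK2, fell at each step, from 61.1 ± 2.61 CPM (SD, n = 3) to 42.1 ± 1.49 and 29.4 ± 0.89, with a log2 fold change of -1.05 at 48 h relative to 0 h (edgeR, adjusted p = 0.000327). Cdk1, the mitotic kinase, fell from 83.4 ± 2.47 CPM to 46.5 ± 3.37 at 24 h and 49.9 ± 3.12 at 48 h (edgeR, log2 fold change -0.84 and -0.73, adjusted p = 0.00129 and 0.00161). Ccnb1, its cyclin B1 partner, rose by 0.43 from 24 h to 48 h (edgeR, adjusted p = 0.00136). Cdc25b, a phosphatase that activates CDKs, fell by 0.54 at 24 h (edgeR, adjusted p = 0.0156).

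**Figure D4:**
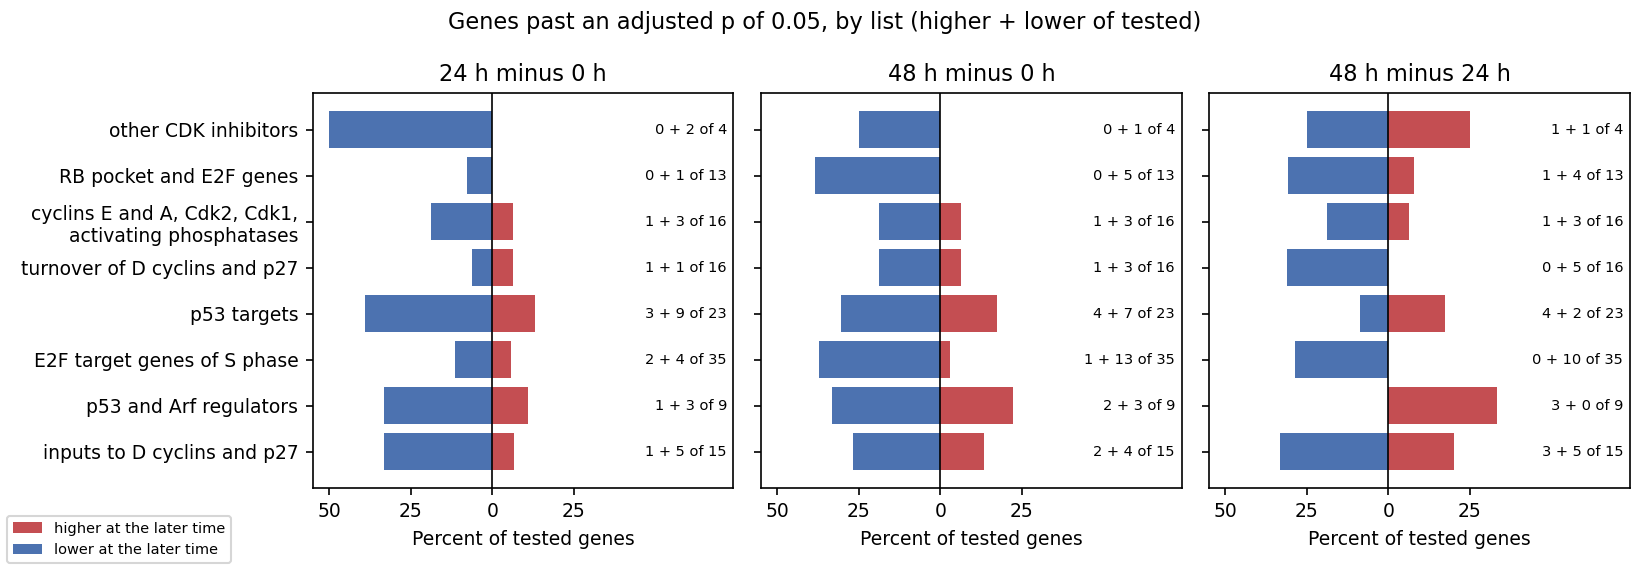
Percent of tested genes (x axis, higher to the right of 0 and lower to the left) past an adjusted p of 0.05 in 8 lists of the pathway, for 24 h against 0 h, 48 h against 0 h and 48 h against 24 h. The text in each row gives the genes higher plus lower of those tested, and the E2F targets of S phase have 1 + 13 of 35 at 48 h relative to 0 h.

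Around Cdkn1a, the 23 other p53 targets had 3 higher and 9 lower by 24 h and 4 higher and 7 lower at 48 h relative to 0 h, then 4 higher and 2 lower from 24 h to 48 h. Lower calls made up 39.1%, 30.4% and 8.70% of the list, beside 14.2%, 18.5% and 12.7% of all genes, and higher calls 13.0%, 17.4% and 17.4%, beside 11.4%, 13.0% and 8.61%. Their median log2 fold changes were -0.090, 0.069 and 0.18, and the 12 calls at 24 h became 6 without 24 h replicate 1. Pmaip1, which encodes the cell death protein NOXA, went from 41.2 ± 13.7 CPM (SD, n = 3) to 6.26 ± 0.68 and 5.84 ± 0.54, falling by 2.72 on the log2 scale at 24 h (edgeR, adjusted p = 0.000515). The stress kinase gene Plk3 went from 58.3 ± 3.49 to 13.8 ± 1.64 and 7.57 ± 1.23, and Ddit4, an inhibitor of mTORC1 also induced by other stresses, from 155, 270 and 334 CPM in the 0 h libraries to 68.6, 69.1 and 89.6 by 24 h and 25.2, 28.2 and 20.7 by 48 h. At 48 h relative to 0 h, they fell by 2.94 and 3.35 on the log2 scale (edgeR, adjusted p = 1.74e-05 and 0.000186). The death receptor gene Fas was low and rose, from 0.59 ± 0.09 CPM to 1.73 ± 0.06 and 3.10 ± 0.38.

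Genes that act on p53 or on Arf moved both ways, with 1 higher and 3 lower of 9 at 24 h, 2 higher and 3 lower at 48 h relative to 0 h, and 3 higher and 0 lower from 24 h to 48 h, and medians of -0.33, -0.29 and 0.17. Of these 9 genes, 44.4%, 55.6% and 33.3% were called, beside 25.5%, 31.6% and 21.3% of all genes. Trp53 itself fell by 0.56 on the log2 scale at 24 h, from 140 ± 11.6 to 94.8 ± 6.90 CPM (edgeR, SD, n = 3, adjusted p = 0.00864). Bmi1, a Polycomb gene known to repress the Cdkn2a locus, went from 48.3 ± 19.3 CPM to 54.9 ± 5.31 and 98.7 ± 6.87, a rise of 0.85 from 24 h to 48 h (edgeR, adjusted p = 0.000566). Tbx2, a T-box gene that also represses this locus, rose by 2.17 at 24 h from a low level, 0.77 ± 0.20 to 3.48 ± 0.50 CPM (edgeR, adjusted p = 0.00166), and Twist1 fell by 1.26 (edgeR, adjusted p = 0.00342).

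The genes for the turnover of D cyclins and p27 had 1 higher and 1 lower of 16 at 24 h, 1 higher and 3 lower at 48 h relative to 0 h, and 0 higher and 5 lower from 24 h to 48 h, with medians of 0.078, -0.057 and -0.0019. The called share was 12.5%, 25.0% and 31.2%, beside 25.5%, 31.6% and 21.3% of all genes. Over 15 alternatives, the calls ranged from 1 to 3, 1 to 7 and 0 to 6. The counts at 48 h, relative to 0 h or to 24 h, thus do not set these genes apart. Pim1, a kinase that phosphorylates p21 and p27, rose from 108 ± 28.1 CPM (SD, n = 3) to 296 ± 4.49 at 24 h and stood at 226 ± 32.4 at 48 h, or log2 fold changes of 1.47 and 1.08 from 0 h (edgeR, adjusted p = 0.00115 and 0.00589). Skp2, the F-box protein that marks p27 for degradation, fell by 0.46 at 48 h relative to 0 h, and the COP9 signalosome gene Cops5 by 0.47 (edgeR, adjusted p = 0.02 and 0.0203).

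Among 15 factors known to raise or lower D cyclins and p27, 1 rose and 5 fell by 24 h, 2 rose and 4 fell at 48 h relative to 0 h, and 3 rose and 5 fell from 24 h to 48 h, with medians of -0.072, -0.17 and -0.17. Calls made up 40.0%, 40.0% and 53.3% of these factors and 25.5%, 31.6% and 21.3% of all genes. Fosl1, an AP-1 gene downstream of ERK, fell from 14.1 ± 2.16 CPM (SD, n = 3) to 8.44 ± 0.78 and 5.18 ± 0.95, by 1.44 on the log2 scale at 48 h relative to 0 h (edgeR, adjusted p = 0.0014). Mycl, a MYC family gene, rose by 1.20 at 24 h, from 21.4 ± 4.29 to 49.0 ± 0.80 CPM (edgeR, adjusted p = 0.0013). Of the Wnt effectors, Lef1 rose by 1.09 and Tcf7l1 fell by 1.08 at 48 h relative to 0 h (edgeR, adjusted p = 0.00263 and 0.00384).

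Genes with the most similar course over the 9 libraries were sought among 9850 genes with a mean of at least 10 CPM, by the root mean square difference of centred log2 CPM. Closest to Ccnd1 was Ccar2 at 0.049, with 81.5, 33.8 and 16.4 CPM as means at 0 h, 24 h and 48 h, and closest to Ccnd2 was Vash2 at 0.10. Cdr2l was nearest to Ccnd3 at 0.058 and Pomp, a proteasome assembly factor, to Cdk4 at 0.091. For Cdk6 it was Fnip2 at 0.068, with means of 108, 207 and 256 CPM. Cdkn1a was followed most closely by Rac3 at 0.10, Cdkn1b by Hsf5 at 0.17, Cdkn2c by the deacetylase gene Sirt2 at 0.0895 and Cdkn2d by Aes at 0.0887. Of these 9 genes, Cdkn1b had the largest distance to its nearest gene. Cdkn2a, called in no comparison, was not searched. These likenesses describe the course over the same libraries only.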

How the data were processed

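Unnormalized read counts per Ensembl gene were deposited by the authors for each of the 9 libraries. Per the labels, poly-A RNA was sequenced from 3 biological replicates at each time, and the submitters' processing notes name fastp, HISAT2, featureCounts and GRCm38 without versions or strand setting. Symbols, exons and lengths came from GENCODE release M21, which held 45229 of the 46078 identifiers, and the rest took at most 0.121% of a library's counts. The 10 genes and the gene lists were chosen with earlier results of these data known.

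Each comparison used its 6 libraries: filterByExpr, TMM and edgeR's two-sided quasi-likelihood test (version 4.0.16, R 4.3.3). P-values were adjusted by Benjamini-Hochberg over all genes tested, and the threshold was 0.05. Each SE is the absolute log2 fold change divided by the square root of the F statistic of the edgeR test. CPM were TMM-scaled over the 9 libraries. P-values set the difference between times against the spread among these libraries of a single cell line, and cover no other line. Replicates differed by more than sampling noise (chi-square per degree of freedom from 7.13 to 81.4), and each was counted. Replicate numbers were not taken as pairs. Named genes are the 10, up to 3 called genes of the largest change per list and comparison, and the nearest genes by course. Sequence matches to other genes used BLAST 2.17.0 (windows of 75 bases, 97% identity). Alternatives were DESeq2 1.42.0 (the authors used 1.20.0), its size factors, library size alone, other filters, all 9 libraries in 1 fit, a replicate block, GC and length offsets, the longest transcript as length and leaving out each library. The fit was tested beforehand on simulated counts with 200 changed genes per comparison. These lacked the trend with GC content seen in the 0 h libraries, so that test does not cover it.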

Additional observations from a re-analysis of the deposited data

How the results depend on the processing

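Of 450 recomputed changes of single genes under 15 alternatives, 418 kept their direction and side of the threshold, 15 lost the call, 13 gained one and 4 changed direction. Ccnd1, Ccnd2, Ccnd3 and Cdk4 kept direction and call under all 15 alternatives in the 3 comparisons, as did Cdk6, Cdkn1a and Cdkn1b relative to 0 h. With all 9 libraries in 1 fit, 4 of the 10 genes were called at 48 h relative to 24 h in place of 7, and 1043 of all genes in place of 3732. Leaving out 1 library at a time gave 7 to 8, 7 to 7 and 6 to 7 calls among the 10 genes for 24 h against 0 h, 48 h against 0 h and 48 h against 24 h, and 2607 to 6023, 3471 to 7116 and 1857 to 4356 calls among all genes, in place of 4494, 5602 and 3732. The changes that turned direction were not called. Cdkn2c at 48 h relative to 0 h stood at 0.056 with GC and length offsets and at 0.071 when a replicate block was added to them, and Cdkn2d at 48 h relative to 0 h ranged from -0.16 to 0.42 and Cdkn2a at 48 h relative to 24 h from -0.039 to 0.10 as 1 library was left out. The cause was not tested. Same-numbered replicates did not deviate together (correlations of -0.395 to -0.013, -0.419 to 0.284 and -0.193 to 0.166 in the 3 comparisons). With the replicate block, 7, 7 and 6 of the 10 genes and 3007, 4013 and 2497 of all genes were called. Scaling by library size alone shifted the median of all genes by 0.11 for 24 h and 0.11 for 48 h against 0 h, and the share of higher genes among the calls from 44.6% to 57.1% and from 41.2% to 52.8%. Of 360 recomputed counts of called genes in the 8 pathway lists, 99 differed by over 1.5 times. For the S phase genes, the counts ranged from 4 to 12 (6 as reported), 5 to 16 (14) and 0 to 11 (10) in the 3 comparisons, for the p53 targets from 6 to 16 (12), 7 to 17 (11) and 2 to 7 (6), and for the RB and E2F genes from 0 to 3 (1), 2 to 6 (5) and 2 to 6 (5). For the later cyclins and kinases they ranged from 1 to 6 (4), 2 to 7 (4) and 2 to 5 (4), for the turnover genes from 1 to 3 (2), 1 to 7 (4) and 0 to 6 (5), for the p53 and Arf regulators from 2 to 6 (4), 2 to 8 (5) and 0 to 4 (3), for the inputs from 3 to 8 (6), 5 to 8 (6) and 4 to 8 (8), and for the other CDK inhibitors from 0 to 2 (2), 0 to 1 (1) and 1 to 3 (2). Of 120 recomputed shares within families, 24 moved by over 1 SD, all of them with the longest transcript as the length. Low counts limit precision, as for Cdkn2c with 42 to 112 counts in a library.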
